A study of Homo sapiens with 6 samples.

Results

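The subject is the 4 inhibitor-of-DNA-binding genes ID1, ID2, ID3 and ID4 in SK-N-BE(2) cells, a long-established neuroblastoma line with amplified MYCN. Its members are the CUT&Tag peaks whose summit lies in the body of one of these genes or within 100 kb of it, which made 134 of the 118064 peaks that 5 deposited lists hold on chromosomes 1 to 22 and X. ID1 had 53, ID2 had 19, ID3 had 58 and ID4 had 4. CUT&Tag maps a protein by bringing a transposase to it through an antibody, so that adapters are inserted into nearby DNA. The groups were libraries made with antibodies against HAND2 (2 replicates), MEIS2 (2 replicates) and TCF4 (1 library), all in the same line with no treatment named. The control was an IgG library, whose own peaks are not analysed here. Whether replicates were separate cultures is not stated, and no TCF4 value has a replicate check.

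ID proteins carry a helix-loop-helix domain but no basic DNA-binding region. They pair with E proteins such as TCF4 and hold them in dimers that do not bind DNA, so that E proteins are kept from tissue-specific bHLH partners such as HAND2. ID1, ID2 and ID3 are classic targets of BMP signalling through SMAD proteins, and ID factors are known for holding neural crest and neural progenitors undifferentiated. The map therefore addresses where a bHLH factor, its E-protein partner and the homeodomain factor MEIS2 sat around the genes of the bHLH inhibitors.

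The promoter sequences below are the 250 bases before each gene start, read 5′ to 3′ on the gene's strand, from RefSeq on GRCh38.p14. They are shown because peaks covered them. Capitals mark matches to CANNTG, the E-box read by bHLH dimers, which reads the same on both strands. ID1 is on chr20:31605039-31605288, ID2 on chr2:8681806-8682055 and ID4 on chr6:19837120-19837369, all on the plus strand, and ID3 is on chr1:23559502-23559751 on the minus strand.
ID1: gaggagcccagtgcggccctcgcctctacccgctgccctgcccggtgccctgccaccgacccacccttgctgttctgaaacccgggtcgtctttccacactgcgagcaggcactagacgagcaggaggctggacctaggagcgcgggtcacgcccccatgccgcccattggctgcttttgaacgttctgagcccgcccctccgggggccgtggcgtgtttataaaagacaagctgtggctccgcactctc
ID2: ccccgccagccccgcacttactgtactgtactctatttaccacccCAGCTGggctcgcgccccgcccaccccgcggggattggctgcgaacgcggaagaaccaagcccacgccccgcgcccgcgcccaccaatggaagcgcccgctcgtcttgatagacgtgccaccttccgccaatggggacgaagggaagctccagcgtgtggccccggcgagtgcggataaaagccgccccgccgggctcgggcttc
ID3: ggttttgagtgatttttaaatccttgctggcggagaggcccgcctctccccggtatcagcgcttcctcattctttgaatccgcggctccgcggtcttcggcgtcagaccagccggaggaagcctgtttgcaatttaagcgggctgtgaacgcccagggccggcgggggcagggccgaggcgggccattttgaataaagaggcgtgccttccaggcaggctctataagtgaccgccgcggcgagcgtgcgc
ID4: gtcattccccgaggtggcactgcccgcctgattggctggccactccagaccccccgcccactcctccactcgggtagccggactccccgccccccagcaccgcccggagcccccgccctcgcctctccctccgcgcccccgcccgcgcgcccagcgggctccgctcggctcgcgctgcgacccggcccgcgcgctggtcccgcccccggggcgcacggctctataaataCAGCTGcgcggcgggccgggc
The ID2 and ID4 windows each held 1 E-box, CAGCTG in both, at positions -205 and -21 from the gene start. The ID1 and ID3 windows held none, although peaks of HAND2 and TCF4 covered both of them. Of 35097 such windows in the RefSeq table, 61.8% held a CANNTG and 14.0% the form CAGCTG, so both a match and its absence are common. CATCTG or CAGATG (12.2% of windows), CAGGTG or CACCTG (17.5%) and the MEIS-type TGACAG or CTGTCA (13.0%) were in none of the 4. These windows are GC-rich, with 66.0, 69.2, 62.0 and 78.8% G or C for ID1, ID2, ID3 and ID4, against a median of 58.0% over all windows.

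Outside the promoters, RefSeq gave sequence at a pair of strong sites. The first is the 250 bases before the start of the non-coding gene LOC105376859, on chr1:23554943-23555192 (minus strand), downstream of ID3. It is shown because the summits of TCF4 and of both HAND2 replicates fell inside it.
LOC105376859: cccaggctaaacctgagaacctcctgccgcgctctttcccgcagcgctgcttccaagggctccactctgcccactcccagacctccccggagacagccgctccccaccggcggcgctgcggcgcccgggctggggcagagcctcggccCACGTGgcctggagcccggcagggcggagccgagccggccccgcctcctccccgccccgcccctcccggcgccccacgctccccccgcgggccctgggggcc
Its E-box, CACGTG, has its centre 17 bases from the TCF4 summit, 94 and 145 bases from the summits of HAND2 replicates 1 and 2, and 162 bases from that of MEIS2 replicate 1. The second is the 250 bases before LOC124904883, on chr20:31670855-31671104 (plus strand), which lies inside the strongest HAND2 peaks of the 4 windows, beside their summits and not under them.
LOC124904883: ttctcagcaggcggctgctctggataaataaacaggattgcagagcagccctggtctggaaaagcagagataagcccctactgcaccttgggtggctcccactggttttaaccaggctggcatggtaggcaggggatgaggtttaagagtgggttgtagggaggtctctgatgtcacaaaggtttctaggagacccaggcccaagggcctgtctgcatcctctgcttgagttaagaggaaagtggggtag
It held no CANNTG and no TGACAG or CTGTCA. A match or its absence describes these letters only.

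On chromosomes 1 to 22 and X, HAND2 had 30410 peaks in replicate 1 and 33484 in replicate 2, MEIS2 had 9595 in replicate 1 and 13871 in replicate 2, and TCF4 had 30704. Median pile-ups of fragments at summits were 34, 41, 22, 13 and 60 in the order of these lists, lowest in the MEIS2 lists. Every peak name deposited for MEIS2 replicate 2 (13876) carries the tag name Flag, which no other list has, although the labels give both replicates the same antibody, and genome-wide only 16.8% of replicate 2 peaks overlapped replicate 1. MEIS2 is therefore given per replicate throughout. Fold enrichment is the authors' value at the summit over the local background, and the ranges in brackets are its exact 95% Poisson limits, taken from the pile-up, which cover counting error only. Folds describe peaks within a list and are not to be read as levels compared between factors. Peak lists do not measure RNA, so markers of the line could not be checked by expression. Control levels, given in IgG fragments, were not counted but inferred from the fold and p of each peak. At peaks over MYCN the inferred level was up to 2641, against 1.91 to 49.0 at the member peaks. MEIS2 replicate 2 had no peak over MYCN. Each list comes from a bulk of cells, so weak binding in many cells and strong binding in few cannot be told apart.

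ID1, ID2 and ID3 each carried HAND2 in both replicates and TCF4 over the gene start, and ID4 carried neither HAND2 replicate. A gene start counted as occupied where a peak overlapped the 1 kb on either side of it. HAND2 was there at 3 of 4 genes in each replicate, and at 18.2% of 19974 protein-coding genes in both replicates together (19.9% in replicate 1 and 27.3% in replicate 2). TCF4 was at 4 of 4, against 54.3% of all genes, so its presence alone is near the common state of a gene. MEIS2 replicate 1 was at 3 of 4 (ID1, ID2 and ID4) against 11.4%, and MEIS2 replicate 2 at ID2 alone against 2.08%, and both MEIS2 replicates met there, as at 1.07% of genes. HAND2 in both replicates, MEIS2 replicate 1 and TCF4 came together at ID1 and ID2, and at 7.15% of all genes. MEIS2 replicate 1 and TCF4 came together at ID1, ID2 and ID4, and at 10.8%. ID2 was occupied in all 5 libraries, as were 0.751% of genes, and none of the 4 starts was empty in every list, as 42.7% of all genes were. With 4 genes chosen with earlier results of these data known, these shares are descriptions and were not tested. Among the 5000 peaks of highest −log10 q in each list, HAND2 held 0 of the 4 starts in replicate 1 and 1 in replicate 2. TCF4 held 3 there, and MEIS2 replicates 1 and 2 held 1 and 0. The share of all genes under that cut was not computed.

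**Figure D1:**
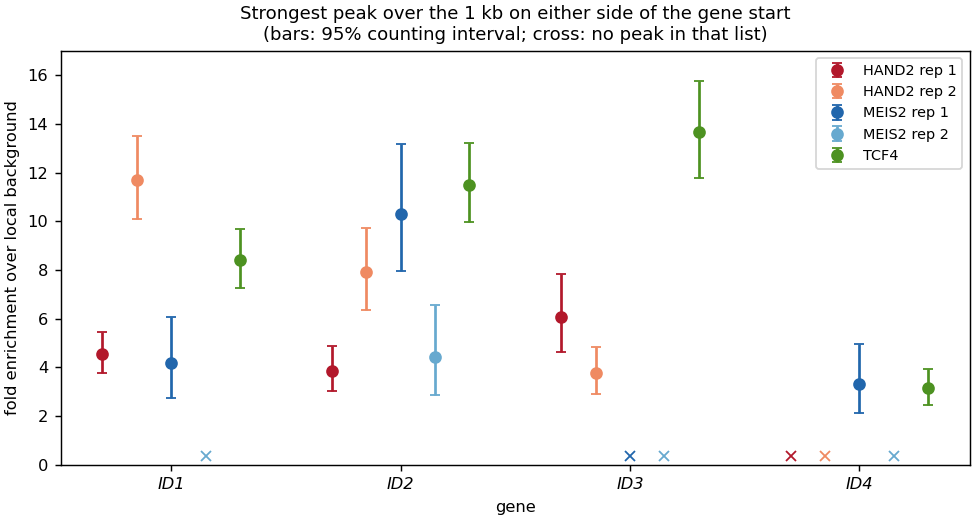
Fold enrichment of the strongest peak over the 1 kb on either side of each gene start, by library, with 95% counting intervals. A cross at the foot marks a library with no peak there. ID2 has a point in all 5 libraries and ID4 in 2, both near 3-fold.

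At the ID2 start the folds were 3.87 (3.03 to 4.87) and 7.91 (6.36 to 9.73) for HAND2 replicates 1 and 2. MEIS2 replicates 1 and 2 had 10.3 (7.97 to 13.2) and 4.43 (2.88 to 6.56), and TCF4 had 11.5 (9.98 to 13.2). The summits of HAND2 replicate 1, TCF4 and MEIS2 replicate 1 lay between 8681998 and 8682064, within 58 bases of the gene's first base, and those of HAND2 replicate 2 and MEIS2 replicate 2 lay 535 and 658 bases upstream. The replicates of each factor thus gave folds whose intervals did not overlap, at summits that also differed in place and in control level (22 and 11 IgG fragments for HAND2). Of the 2283 genes with a MEIS2 replicate 1 peak at the start, 8.02% had a fold as high as that of ID2, whereas in MEIS2 replicate 2 the share was 71.6% of 415 genes.

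At the ID3 start TCF4 stood higher, at 13.7 (11.8 to 15.8), a value reached by 7.5% of the 10840 genes with TCF4 at a start. HAND2 had 6.08 (4.63 to 7.85) and 3.77 (2.89 to 4.85) in replicates 1 and 2. The summits of TCF4 and HAND2 replicate 2 were 1 base apart, at 23559529 and 23559528, and that of replicate 1 lay 200 bases upstream of the gene start. Neither MEIS2 replicate had a peak there. At the local control level the smallest callable fold was 3.02 in MEIS2 replicate 1 and 2.76 in replicate 2, so lower MEIS2 enrichment at this start was not detectable at this depth.

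At the ID1 start the peaks reached the gene from either side and their summits lay off it. HAND2 replicate 1 had 4.56 (3.77 to 5.46) with its summit 1041 bases upstream, and TCF4 had 8.41 (7.27 to 9.68) with its summit 1095 bases upstream. HAND2 replicate 2 covered the whole gene with a single peak of 5032 bases, whose fold of 11.7 (10.1 to 13.5) belongs to a summit 3239 bases downstream of the start. In replicate 1 that stretch was split into separate peaks, so the difference between 4.56 and 11.7 compares different places. With summits rather than overlaps required within 1 kb, ID1 kept MEIS2 replicate 1 alone, at 4.17 (2.76 to 6.08), 399 bases upstream. MEIS2 replicate 2 had no peak over the ID1 start, where 2.51-fold was its smallest callable value.

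ID4 was the least occupied of the 4 genes. At its start MEIS2 replicate 1 had 3.31 (2.13 to 4.94) and TCF4 had 3.14 (2.46 to 3.95), each among the lower peaks of its list (81.1 and 85.2% of genes with a start peak in the same library had a fold as high or higher). A HAND2 peak would have been callable from 1.86-fold in replicate 1 and 1.77-fold in replicate 2 at the control level of this site (28 IgG fragments). A HAND2 peak as strong as those at the other 3 starts would have passed, if the HAND2 lists used the same control. The only other ID4 peaks formed 1 region in the non-coding gene LNC-LBCS, 32681 bases upstream for TCF4 (3.49, 2.68 to 4.48) and 32807 bases upstream for HAND2 replicate 2 (2.24, 1.64 to 3.001).

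**Figure D2:**
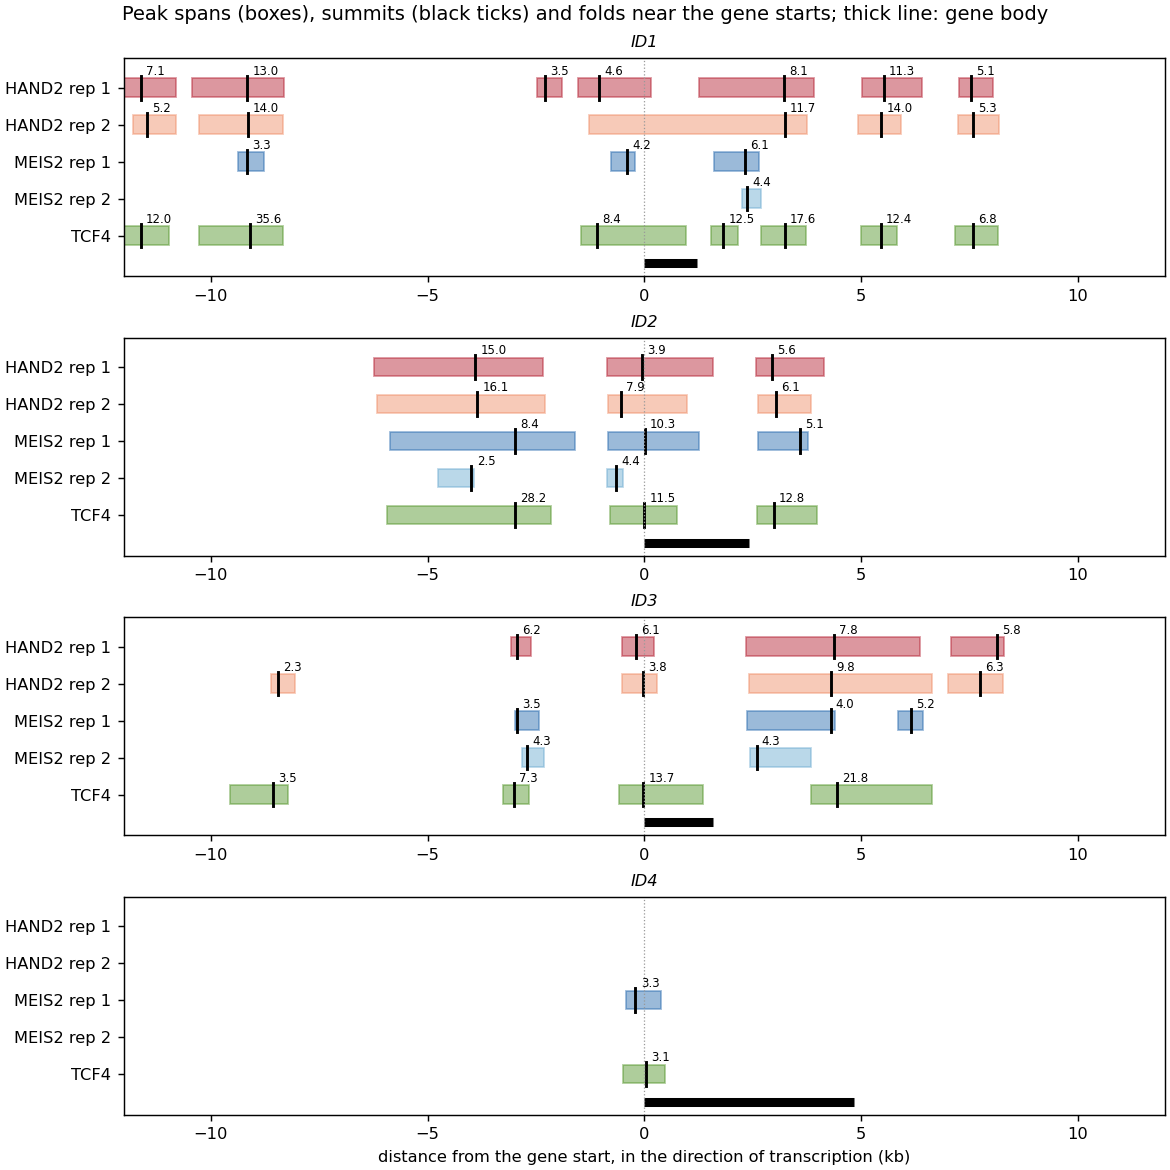
Peak spans (boxes), summits (black ticks) and folds (numbers) within 12 kb of the 4 gene starts, one row per library, with distance in kb in the direction of transcription. ID2 shows 3 stacked regions, upstream, at the start and beyond the gene's end, ID1 and ID3 show flanking peaks on both sides, and ID4 shows 2 peaks at its start.

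For TCF4 and HAND2 the strongest peaks of ID1, ID2 and ID3 lay away from the starts, while both MEIS2 replicates were highest at the start of ID2 within that window. ID1 (chromosome 20, 31605289 to 31606510) had a pair of upstream sites where TCF4 was among the top 1.01% of its list. At the nearer, TCF4 reached 35.6 (33.8 to 37.5) 9098 bases upstream, with HAND2 at 13.0 (11.8 to 14.3) and 14.0 (12.8 to 15.2) in replicates 1 and 2 and MEIS2 replicate 1 at 3.28 (2.35 to 4.47). The 4 summits lay between 31596129 and 31596191, and MEIS2 replicate 2 had no peak.

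At the farther ID1 site, TCF4 reached 36.1 (33.9 to 38.4) and HAND2 15.9 (14.4 to 17.4) and 18.1 (16.6 to 19.6), all 3 with the summit at the same base, 31571007, 34282 bases upstream. At that base each of the 3 lists gave an inferred local background of 34 IgG fragments, as lists called against one control would. The peaks there spanned 5813 and 5721 bases in HAND2 replicates 1 and 2 and 5776 in TCF4, within the widest 0.547% of each list. They covered the end of HM13, a signal peptide peptidase gene, and most of its antisense non-coding gene HM13-AS1. MEIS2 replicate 1 had 2 low peaks in the same span, at 3.08 and 3.89. These sites thus joined high TCF4 and HAND2 with low MEIS2.

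Beyond the ID1 gene body a run of sites followed. Summits of HAND2 replicates 1 and 2 and TCF4 fell between 31608517 and 31608528, about 3.2 kb past the start, at 8.15, 11.7 and 17.6. The next site, with summits 5449 to 5518 bases downstream, had 11.3 (9.48 to 13.4), 14.0 (12.01 to 16.1) and 12.4 (10.5 to 14.7). Both MEIS2 replicates overlapped each other at 1 place in this window, with summits 2328 and 2374 bases downstream and folds of 6.12 (3.81 to 9.39) and 4.37 (2.68 to 6.77), 46 bases apart. HAND2 peaks of both replicates covered this site. HAND2 in both replicates and TCF4 also shared weaker sites, without MEIS2, with TCF4 at 9.29 at 17462 bases upstream, 11.97 at 11611 bases upstream and 6.82 at 7586 bases downstream.

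Farther downstream, the ID1 window ran into neighbouring genes, where the libraries differed in what they held. HAND2 had its strongest peaks of all 4 windows 65380 and 65487 bases downstream, at 21.0 (17.2 to 25.5) and 21.2 (17.6 to 25.3), inside BCL2L1, which encodes an inhibitor of apoptosis, and over the LOC124904883 sequence given above. TCF4 and both MEIS2 libraries had no peak in that region. TCF4 had 15.4 (12.9 to 18.2) at 56563 bases, outside BCL2L1, with HAND2 at 3.37 and 4.05. MEIS2 replicate 2 had its highest fold of the 4 windows 47834 bases downstream, at 12.6 (8.71 to 17.6), with no MEIS2 replicate 1 peak. HAND2 summits flanked it, at 5.96 and 4.23 on the near side and 6.18 and 6.27 on the far side in replicates 1 and 2. Position alone put these peaks in the ID1 set, and BCL2L1 or COX4I2 is the nearest protein-coding gene to them.

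ID2 (chromosome 2, 8682056 to 8684461) had few regions, and most peaks were close to the gene: 14 of its 19 peaks had their summit within 10 kb of the start, against 20 of 53 at ID1 and 17 of 58 at ID3. The strongest region ran from 8675820 to 8680453, largely inside the antisense non-coding gene ID2-AS1, and held all 5 libraries. TCF4 had 28.2 (26.0 to 30.5) 2976 bases upstream, in the top 1.98% of its list, and MEIS2 replicate 1 had 8.43 (6.58 to 10.7) 1 base away from that summit, at 2977. HAND2 replicates 1 and 2 had 15.0 (13.2 to 17.03) and 16.1 (14.3 to 18.1) at 3901 and 3858 bases, and MEIS2 replicate 2 had 2.53 (1.63 to 3.78) at 3987. The region thus held separate summits, TCF4 with MEIS2 replicate 1 nearer the gene and HAND2 with MEIS2 replicate 2 farther out.

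Past the end of ID2, the next region held TCF4 at 12.9 (10.97 to 15.0), HAND2 at 5.60 (4.31 to 7.15) and 6.14 (4.96 to 7.53) and MEIS2 replicate 1 at 5.13 (3.44 to 7.38). HAND2 without the other factors occupied a site 19660 and 19665 bases upstream, at 7.64 and 5.67, and TCF4 alone one 22148 bases upstream, at 3.78. The last HAND2 region, about 84 kb upstream, was weak at 2.24 and 2.09. All 5 HAND2 regions of ID2 held both replicates.

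ID3 (chromosome 1, 23557926 to 23559501, minus strand) had its strongest TCF4 peak beyond the end of the gene, at the start of LOC105376859. TCF4 had 21.8 (19.7 to 24.1) there, 4442 bases downstream of the ID3 start and in the top 3.62% of its list. HAND2 replicates 1 and 2 had 7.84 (6.47 to 9.42) and 9.75 (8.24 to 11.5) in peaks of 3999 and 4207 bases. MEIS2 replicate 1 had 2 peaks in the region, at 5.17 (2.80 to 8.91) and 4.03 (2.48 to 6.25), and MEIS2 replicate 2 had 4.31 (2.49 to 7.04) 2591 bases downstream of the start. It was the ID3 region with all 5 libraries.

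Upstream of ID3, a small site about 3 kb from the start held HAND2 replicate 1 (6.19), both MEIS2 replicates (3.45 and 4.34) and TCF4 (7.32), without HAND2 replicate 2. HAND2 replicate 1 and MEIS2 replicate 1 had the same summit base there, 23562445. Around 39 kb upstream HAND2 had 9.88 (8.55 to 11.4) and 13.3 (11.8 to 15.1) and TCF4 14.7 (13.0 to 16.5), without MEIS2. A site about 80 kb upstream, in the non-coding gene MDS2, had the highest HAND2 replicate 2 fold of the ID3 window at 16.4 (12.6 to 20.9), with 11.2 (8.02 to 15.3) in replicate 1, 14.5 (10.9 to 19.0) for TCF4 and 7.74 (4.38 to 12.9) for MEIS2 replicate 1. HAND2 replicate 1 was highest about 33 kb upstream, at 11.7 (8.59 to 15.7), where replicate 2 had 7.93 (5.50 to 11.1). Downstream, near 19 kb, HAND2 had 8.37 and 9.11 in replicates 1 and 2, and TCF4 had 8.42. The remaining ID3 peaks of HAND2 had folds of 2.34 to 6.34 and those of TCF4 3.48 to 5.49, apart from 1 peak of 20.5 at E2F2.

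**Figure D3:**
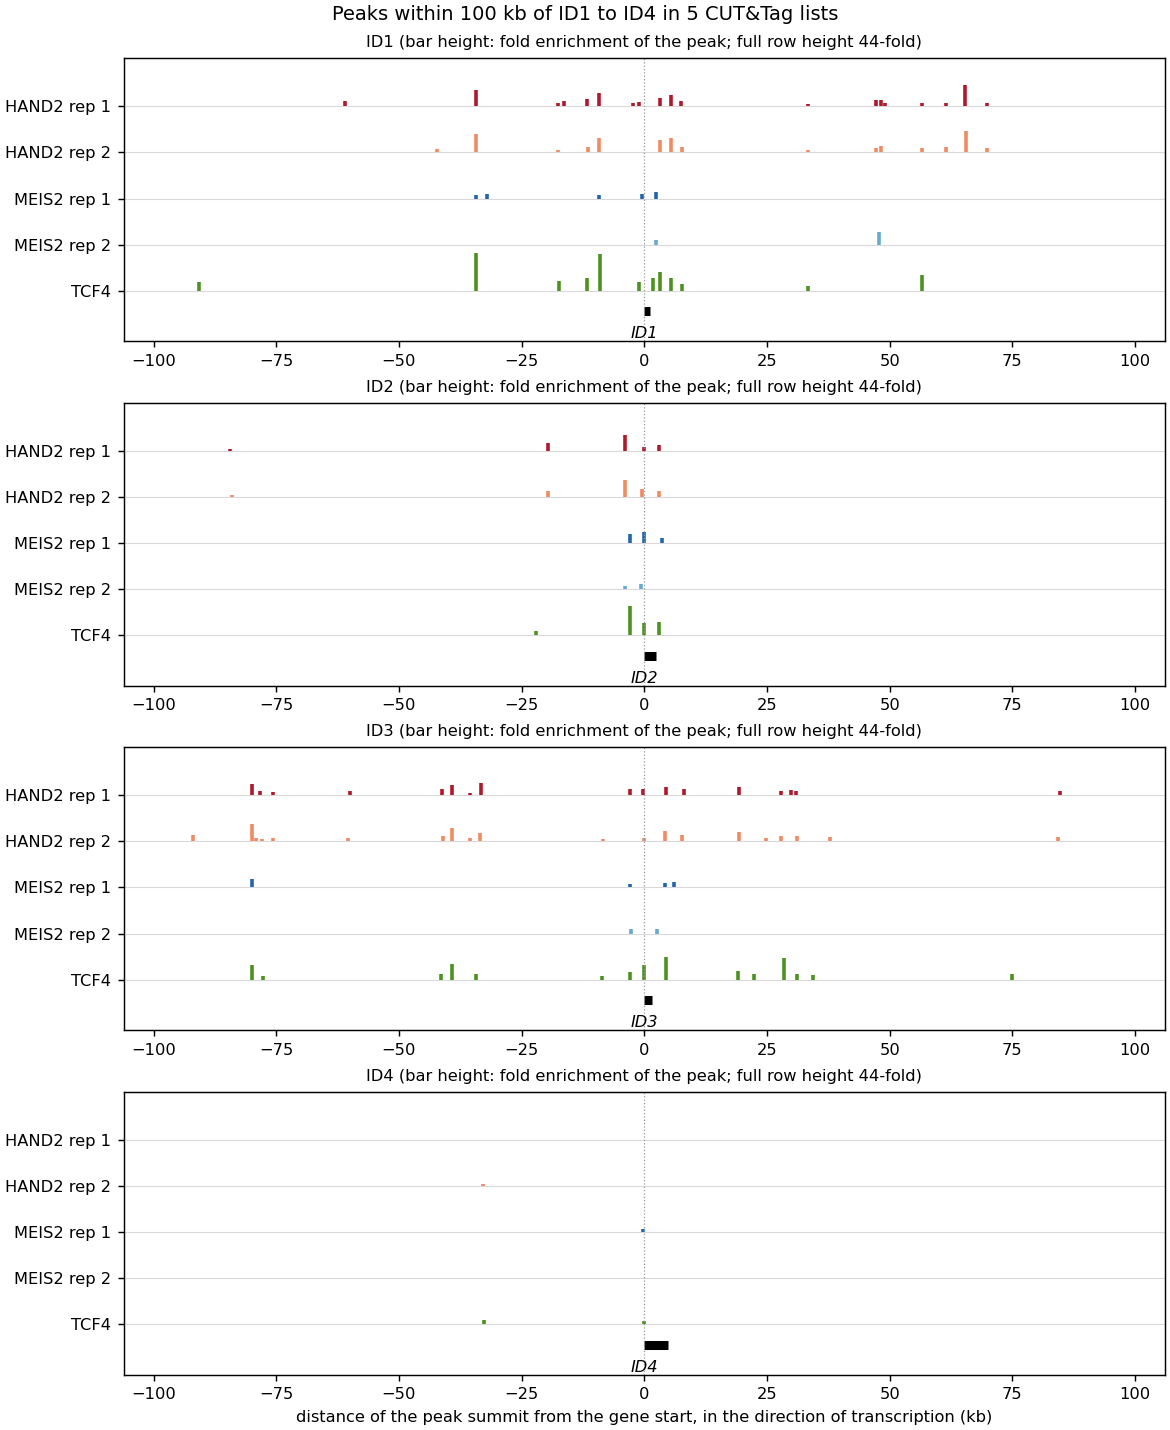
Summits of all 134 peaks by distance from the gene start in kb, one row per library and one panel per gene, with bar height proportional to the authors' fold. The tallest bars are TCF4 at ID1, 9.1 and 34 kb upstream, and ID4 has 4 short bars.

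Set beside all protein-coding genes, ID1 and ID3 had many HAND2 peaks and ID4 few. ID1 had 19 and 15 peaks in HAND2 replicates 1 and 2 and ID3 had 17 and 20, against medians of 2 and 3 per gene. As many or more were found at 3.15 and 8.52% of 19974 genes for ID1 and at 4.09 and 4.24% for ID3. ID2 had 5 in each replicate, a count reached by 31.0 and 36.8% of genes. ID4 had 0 and 1, where 70.9 and 73.8% of genes had at least 1.

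For TCF4, ID1 had 12 peaks, ID2 4, ID3 15 and ID4 2, against a median of 3, and 19.5, 47.8, 14.0 and 68.9% of genes had as many or more. In MEIS2 replicate 1 the counts were 5, 3, 4 and 1 against a median of 1, and in replicate 2 they were 2, 2, 2 and 0 against a median of 0. At least 1 peak in the window was found at 82.4, 51.3 and 41.8% of all genes for TCF4 and for MEIS2 replicates 1 and 2. The window includes the gene body, and the ID genes are short. Within 100 kb of the gene start, an equal length at every gene, the ID counts were unchanged and fewer of the 15813 genes of known strand matched them (1.38 and 5.50% for ID1 in HAND2 replicates 1 and 2, and 15.6% in TCF4).

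**Figure D4:**
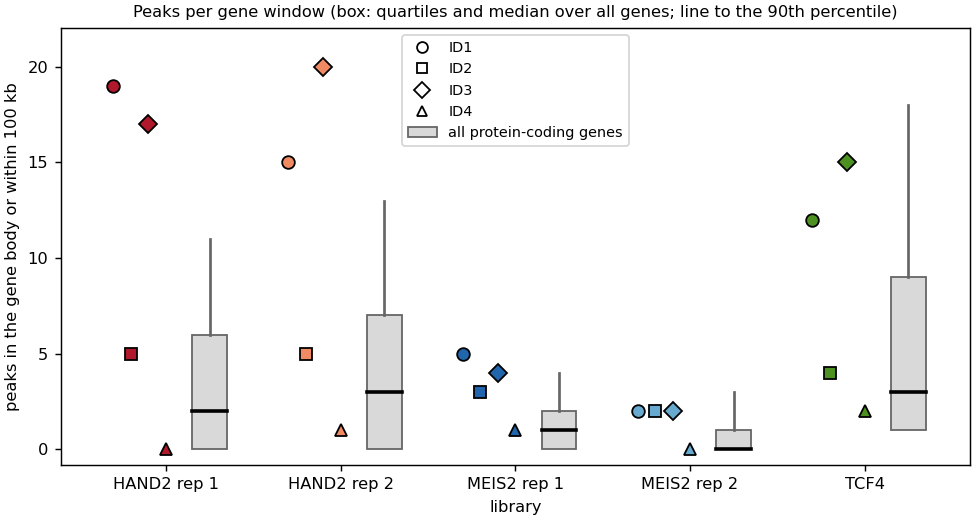
Number of peaks in each gene's window by library, as symbols for ID1 to ID4, beside boxes with the quartiles and median over 19974 protein-coding genes and a line to the 90th percentile. ID1 and ID3 lie above that percentile in both HAND2 libraries, and ID4 lies at or below the median in all 5.

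Merged by overlaps of at least 1 base, the 134 peaks formed 48 regions. All 3 factors shared 9 of them (18.8%, against 9.36% of 61457 regions genome-wide), 3 each at ID1, ID2 and ID3 and 0 at ID4. Without MEIS2 replicate 1 there were 5 such regions. HAND2 and TCF4 without MEIS2 shared 15 (31.2%, against 16.9%), 17 held HAND2 alone (35.4%, against 28.2%) and 5 TCF4 alone (10.4%, against 21.6%). Without HAND2 replicate 2 there were 8 with TCF4 alone. No region held MEIS2 alone, where 15.4% of all regions did so genome-wide. Of the 11 MEIS2 regions, 10 held HAND2 (90.9%, against 51% of MEIS2 regions genome-wide) and 10 held TCF4 (90.9%, against 31%). All 13 MEIS2 replicate 1 peaks and all 6 of replicate 2 overlapped a peak of HAND2 or TCF4. That share of peaks was not computed over the whole lists. Where only summits within 300 bases of each other counted as shared, the regions numbered 71. Of these, 6 held all 3 factors, 29 HAND2 alone and 8 TCF4 alone. Genome-wide shares under that rule were not computed. Regions are not replicates and were counted, not tested.

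The share of TCF4 regions with HAND2 was 24 of 30 at the ID genes (80.0%) and 53.8% genome-wide. In the other direction 24 of 42 HAND2 regions held TCF4 (57.1%, against 42.3%). HAND2 regions present in both replicates held TCF4 at 21 of 32 places (65.6%, against 53.0% genome-wide) and those in 1 replicate at 3 of 10 (30%, against 26.4%). Regions with peaks of all 5 libraries numbered 4, of which ID2 had 2 and ID1 and ID3 had 1 each (8.33%, against 1.72%).

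HAND2 peaks of the ID windows recurred between replicates. Of the 41 peaks in each replicate, 37 of replicate 1 overlapped replicate 2 (90.2%, against 78.5% of its whole list) and 35 of replicate 2 overlapped replicate 1 (85.4%, against 71.6%). In the 32 regions with both, the counting intervals of the folds overlapped in 29, and the ratio of replicate 2 to replicate 1 ran between 0.580 and 2.05 with a median of 1.08. Each ratio used the highest fold of a replicate in the region, so the summits compared could lie apart. At the lowest ratio they lay 16430 and 17576 bases upstream of ID1 in replicates 1 and 2. The highest ratio was at the ID2 start, where the summits lay 58 and 535 bases upstream. MEIS2 replicate 2 peaks overlapped replicate 1 at 5 of 6 places (83.3%, against 16.8% of its whole list). MEIS2 replicate 1 peaks overlapped replicate 2 at 5 of 13 (38.5%, against 24.6%). An overlap of 1 base was enough here. Where only summits within 300 bases counted as shared, both MEIS2 replicates met in 2 regions instead of 5.

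Within each list, the median fold of the member peaks was 5.39 and 5.22 for HAND2 replicates 1 and 2 and 8.42 for TCF4, against 5.08, 4.67 and 4.98 over the whole lists. The MEIS2 members were lower than their lists, at 4.17 and 4.36 against 5.90 and 6.48. An ID gene was the nearest protein-coding gene for 23 and 21 of the HAND2 peaks, 10 of 13 and 5 of 6 MEIS2 peaks and 21 of 33 TCF4 peaks. Summits within 10 kb of a start numbered 10 of 13 and 5 of 6 for MEIS2 replicates 1 and 2. They numbered 13 of 41 and 11 of 41 for HAND2 and 14 of 33 for TCF4. The nearest-gene and 10 kb shares were not computed over the whole lists. They therefore cannot be read as particular to the ID genes.

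**Figure D5:**
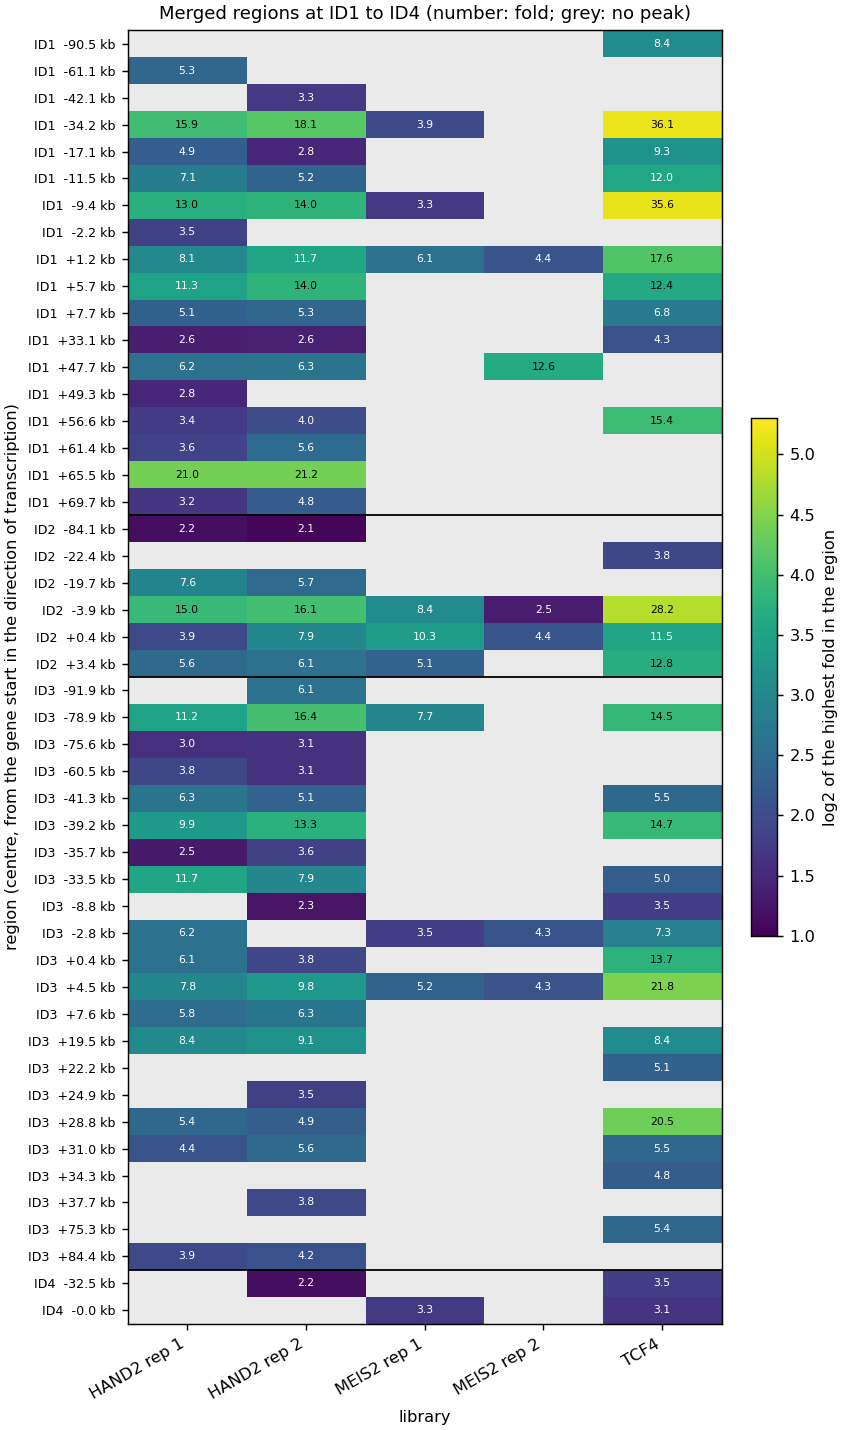
The 48 merged regions at ID1 to ID4 by position (rows, centre in kb from the gene start) and library (columns). Colour is the log2 of the highest fold, the number is the fold and grey means no peak. Of the 9 regions with all 3 factors, 4 have a value in every column.

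Among the genes whose products meet the ID proteins, all 3 E-protein genes had TCF4 at a start, as did 54.3% of all genes. The folds were 22.1 at TCF4 itself, 8.53 at TCF3 and 5.09 at TCF12. For the other libraries the all-gene shares were 18.2% for HAND2 in both replicates, and 11.4 and 2.08% for MEIS2 replicates 1 and 2. HAND2 in both replicates was at the TCF4 gene (9.79, lower of the replicates) and at TCF12 (2.66), and not at TCF3. MEIS2 replicate 1 was at all 3, at 34.8 for TCF3, 11.6 for the TCF4 gene and 3.36 for TCF12, and MEIS2 replicate 2 at the TCF4 gene alone (9.07). The TCF4 gene has several listed starts and any of them counted. Of 22 tissue-restricted bHLH genes, 3 had HAND2 in both replicates, against 18.2% of all genes, and 11 had TCF4, against 54.3%. MEIS2 replicates 1 and 2 were at 4 and 1 of them, against 11.4 and 2.08% of all genes. The 3 were HAND1 (10.1), HAND2 (3.85) and ATOH8 (2.74). TCF4 was highest at SCX (25.5, tested at either end), HAND2 (12.8) and HAND1 (12.2).

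Of 22 genes of the BMP to SMAD pathway and its inhibitors, 11 had HAND2 in both replicates, against the same 18.2% of all genes. TCF4 was at 16 of the 22, against 54.3%. MEIS2 replicates 1 and 2 were at 4 and 3 of these genes, against 11.4 and 2.08% of all genes. HAND2, by the lower replicate, was highest at ACVR1, a type I BMP receptor gene, at 33.8, followed by the receptor gene BMPR1B at 5.28 and BAMBI, a decoy receptor gene, at 4.90. TCF4 was highest at BMPR1B (19.1), BMPR2, the type II receptor gene (8.62), and ENG, a co-receptor gene (8.04). The ligand genes BMP2, BMP4, BMP5, BMP6 and GDF2 and the gene CHRD had no peak at a start in any list. The same held for 42.7% of all genes. The ligand gene BMP7 had TCF4 alone (3.80). All 3 lists were chosen with earlier results of these data known, and their shares were not tested.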

How the data were processed

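CUT&Tag libraries were sequenced and processed by the study. Per the submitters' processing notes, bcl2fastq 2.17, Bowtie2 and MACS3 3.0.0a6 were used with hg38; their options and the read filters are not given in the sources consulted. The authors deposited 1 narrowPeak list per library, so replicates were called separately. In each list the authors give a fold enrichment (a ratio at the summit), −log10 p and q values, and an integer score that was not used. The TCF4 list does not name its control. Control levels were inferred: the background was derived from fold and p and divided by a unit fitted to each list. Of the backgrounds used in that fit, 45.4 to 68% per list lay at a whole multiple of the unit. At a summit base that TCF4 shares with both HAND2 lists, the inferred control level was 34 fragments in each.

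Only peaks on chromosomes 1 to 22 and X were kept, with none dropped for strength. Pile-ups were recovered from fold and p as whole numbers (tolerance 5e-05). The step recovered 100% of 4937 simulated peaks, which were made with the same formula and so check the arithmetic only. In the lists it found a pile-up for 98.8% of MEIS2 replicate 1 peaks and, rounded, 100% in each other list. Poisson intervals (95%) come from the pile-ups and cover counting error only. Genes are RefSeq on GRCh38.p14. Of 19974 protein-coding genes, 4162 had no listed start and were tested at either end. Regions are peaks linked by an overlap of 1 base. Each gene, region and list was counted, with no test. Members and gene lists were chosen with earlier results of these data known. In the gene lists, the genes named are the 3 with the highest HAND2 fold (lower replicate) and the 3 with the highest TCF4 fold at a start. The BMP ligands and CHRD were named after their values were seen. Alternatives varied the threshold, window, start distance and overlap, and left out each replicate. Python 3.11.15, pandas 2.3.3, numpy 2.4.6, scipy 1.17.1 and matplotlib 3.10.9 were used.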

Additional observations from a re-analysis of the deposited data

How the results depend on the processing

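Of 137 recomputed counts, 103 stayed within 1.5 times the reported one. With the 5000 peaks of highest −log10 q per library, gene starts called numbered 0 and 1 for HAND2 replicates 1 and 2 (0 in both). They numbered 1 and 0 for MEIS2 replicates 1 and 2 (0 in both) and 3 for TCF4. HAND2 replicates then had 8 and 9 window peaks, MEIS2 replicates 5 and 1, and TCF4 had 13. The 15 regions left included 2 with all 3 factors, 5 with HAND2 and TCF4, 1 with HAND2 alone and 3 with TCF4 alone; both replicates shared 8 for HAND2 and 0 for MEIS2. With −log10 q of 5 or more, MEIS2 replicates 1 and 2 had 8 and 3 window peaks and 2 shared regions, and TCF4 alone held 8. Counting starts within 5 kb gave 3 for MEIS2 replicate 2 and 3 for both MEIS2 replicates. With a 50 kb window HAND2 alone held 8 regions and TCF4 alone 3. With summits within 300 bases counted as shared, there were 71 regions. All 3 factors held 6 of them, HAND2 alone 29 and TCF4 alone 8, and both MEIS2 replicates shared 2. Without peaks of 30 or more control fragments TCF4 alone held 3. Leaving out 1 replicate at a time gave 1 to 3 starts for MEIS2 (3 without replicate 2), 5 to 10 regions with all 3 factors (5 without MEIS2 replicate 1), 5 to 8 with TCF4 alone (8 without HAND2 replicate 2) and 6 to 10 MEIS2 regions (10 without replicate 2). The window total of ID1 was 34 without HAND2 replicate 1 and 38 without replicate 2, and that of ID3 was 41 and 38. Stricter lists hold fewer peaks by construction; otherwise the cause was not tested. With summits in place of overlaps, an alternative chosen after seeing the data, 2 starts were called in each HAND2 replicate and 3 for TCF4. No paired analysis was possible because the counts come from no test. Inferred depth was lowest in the MEIS2 lists, and its effect on their counts was not tested. Relative to the control, depth was inferred at 0.248 and 0.368 in MEIS2 replicates 1 and 2, against 0.784 to 0.932 in the other lists. Median pile-ups of the MEIS2 lists were 22 and 13.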

Other observations

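Neighbouring genes took a share of the member peaks. At E2F2, which encodes a cell-cycle transcription factor, TCF4 had 20.5 (18.1 to 23.1), 28416 bases downstream of the ID3 start. This summit lay inside E2F2, near its boundary on the side of ID3. HAND2 summits just outside that boundary had 4.52 and 4.94 in replicates 1 and 2. Inside COX4I2, a cytochrome c oxidase subunit gene downstream of ID1, TCF4 had 4.26 and HAND2 2.57 and 2.63. TCF4 without the other factors lay in ASAP3 (5.38) and HM13 (8.42).

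The 100 kb limit fell in stretches without peaks. The outermost member of the ID1 set lay 90673 bases from the gene (TCF4, 8.42) and the next peak outside 106722 bases away (MEIS2 replicate 2, 6.80). For ID2 they were at 84409 bases (HAND2 replicate 1, 2.24) and 107110 bases (HAND2 replicate 2, 2.58). For ID3 both were of HAND2 replicate 2, at 91866 bases (6.11) and 104832 bases (2.47). For ID4 the outermost member lay 32807 bases away (HAND2 replicate 2, 2.24), and the next peak outside 171756 bases away (MEIS2 replicate 2, 6.23).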
